A study of Mus musculus with 35 samples.

Results

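Tnf, its receptors and the NF-kB genes that answer to them were followed through a mouse model of temporal lobe epilepsy. The set holds 10 of the 32544 gene symbols in the count tables, chosen by name. They are the ligand Tnf, the receptors Tnfrsf1a, Tnfrsf1b, Tnfrsf12a and Fas, the NF-kB subunits Nfkb1, Nfkb2 and Relb, and the feedback inhibitors Nfkbia and Tnfaip3. TNF is a cytokine that injured brain tissue makes chiefly in microglia, and it binds a receptor found on most cells, the product of Tnfrsf1a, and a more restricted one, the product of Tnfrsf1b. Receptor binding frees NF-kB dimers from their inhibitor IkB-alpha, the product of Nfkbia, so that they enter the nucleus and switch on genes of inflammation and survival. Among the genes that NF-kB switches on are its own brakes, Nfkbia and Tnfaip3 (A20), and the precursors of its own subunits, a feedback that limits the response in time.

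The mice were adult male C57BL/6JOlaHsd animals with a cannula over the amygdala. IAKA mice received kainic acid, a glutamate receptor agonist, in the amygdala, which triggers status epilepticus, and were given lorazepam afterwards. Control mice received PBS, and the methods do not state separately whether they were given lorazepam. Whole hippocampal RNA was taken 24 hours or 2 weeks later, after perfusion, and sequenced as total RNA (input) or as RNA pulled down with an antibody against m6A. Each library came from 1 mouse. There were 5 IAKA and 3 PBS m6A libraries at 24 hours and 6 and 5 at 2 weeks. Of 16 input libraries, 13 had 100000 or more counts and were used, from 3 IAKA mice and 1 PBS mouse at 24 hours and from 6 and 3 at 2 weeks. The names of the data columns state the assay for 8 of the 35 libraries. For the rest it was inferred from the prefix of the column name, and so was the library set, which is that prefix (3, 4 or 5 in m6A libraries, and "Input" or none, the unprefixed set, in input libraries).

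Counts per library ran from 1652933 to 34564536 in the m6A libraries and from 3057578 to 12694434 in the 13 input libraries. Levels are given as counts per 1000000 counts of a library (CPM). Markers of neurons, astrocytes, oligodendrocytes and microglia were present in every group. IAKA mouse 8 stood apart at 24 hours. Its m6A library had the lowest summed astrocyte markers of its group (1136 CPM, group median 4484) and the highest leukocyte markers (128.7 CPM, group median 40.7), and its input library had the same ranks (913 CPM, group median 4030, and 102.2 CPM, group median 80.9). Both its libraries were also the lowest of their groups in excitatory neuron (1046 CPM in m6A, group median 3716), microglia and oligodendrocyte markers and the highest in blood markers. Its m6A library was the lowest in endothelial and inhibitory neuron markers, and its input library was the highest in them. In whole tissue, fewer cells of a type and less RNA per cell cannot be told apart.

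The first question was how the set differed between IAKA and PBS mice at 24 hours. Tnfrsf12a, the receptor for the cytokine TWEAK and a gene known for its induction by injury, separated most clearly in the m6A libraries. In the 5 IAKA libraries it stood at 5.05 CPM (mouse 67), 6.66 (mouse 98), 8.54 (mouse 97), 8.32 (mouse 79) and 6.38 (mouse 8), and in the 3 PBS libraries at 0.896 (mouse 71), 0.501 (mouse 73) and 0.369 (mouse 1). Every IAKA library lay above every PBS library, which was true of 2.62% of the 16470 genes tested and of 1 of the 10 members. The means were 6.99 ± 1.45 CPM (SD, n = 5) and 0.589 ± 0.274 CPM (n = 3). The fitted difference, given here as the log2 fold change of IAKA over PBS mice (log2FC), was 3.54 (SE 0.45), or 11.7-fold, and ranked at place 2 of all genes by P. Adjusted over all genes, its P in the quasi-likelihood test of edgeR was 0.0830. That is short of the threshold of 0.05. DESeq2 placed it past the threshold (adjusted P = 4.60e-10), as did limma voom with sample quality weights (3.42e-05), edgeR over all 4 m6A groups (0.0318), without the filter on low counts (0.00565), with library size scaling (0.0497) and without IAKA mouse 8 (0.0133). Within library set 4 alone, with 2 IAKA and 2 PBS libraries, the log2FC was 3.41 (SE 0.32, adjusted P = 0.00817, edgeR). This split was chosen after seeing the data, and 356 of all genes passed in it, against 1 over all 24-hour m6A libraries. With the library set as a block the log2FC was 3.45 (SE 0.50, adjusted P = 0.255, edgeR). Set 4 alone holds both conditions at this time, so the block compares them within the same libraries. Over 18 alternatives the adjusted P ran from 4.60e-10 to 0.638, the highest without PBS mouse 73, and the log2FC from 3.22 to 3.94.

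Tnfrsf1a, the receptor that carries the death domain signal of TNF, was the next by size among the receptors. Its values in IAKA mice were 7.58 CPM (mouse 67), 6.66 (mouse 98), 18.8 (mouse 97), 19.04 (mouse 79) and 3.71 (mouse 8), against 3.87 (mouse 71), 3.29 (mouse 73) and 1.48 (mouse 1) in PBS mice. All IAKA libraries but that of mouse 8 lay above the PBS libraries. Mice 97 and 79 belong to library set 4, as do PBS mice 71 and 73. The 3 lower IAKA libraries belong to set 3, which holds no PBS library at either time. The log2FC was 1.91 (SE 0.55, adjusted P = 0.535, edgeR). It was 2.28 within set 4, a split chosen after seeing the data (SE 0.19, adjusted P = 0.00656, edgeR), and 2.28 with the set as a block (SE 0.32, adjusted P = 0.248, edgeR). Both compare the conditions within the libraries of set 4, so they are not separate checks. Voom also called Tnfrsf1a (adjusted P = 0.000992), and DESeq2 did not (0.0737). Over 18 alternatives the adjusted P ran from 0.000992 to 1.000 and the log2FC from 1.60 to 2.28.

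Tnfrsf1b, the TNF receptor without a death domain, overlapped between the groups in the m6A libraries, at 6.57, 1.81, 6.61, 8.13 and 2.00 CPM in IAKA mice 67, 98, 97, 79 and 8 and at 5.81, 2.50 and 1.25 CPM in PBS mice 71, 73 and 1. Its log2FC was 0.63 (SE 0.58), and 1.31 (SE 0.68) without PBS mouse 71. Fas, which triggers apoptosis when its own ligand binds, also overlapped, at 4.55, 0.605, 3.49, 5.25 and 3.71 CPM in the same IAKA mice and 2.33, 1.14 and 2.29 CPM in the PBS mice. The lowest Fas value rests on 1 count in mouse 98, a library of 1652933 counts. Its log2FC was 0.93 (SE 0.56).

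The ligand itself was at the edge of detection. Tnf had 5, 1, 16, 64 and 25 counts in IAKA mice 67, 98, 97, 79 and 8, or 2.53, 0.605, 1.19, 2.00 and 1.85 CPM. PBS mice 71, 73 and 1 had 30, 0 and 3 counts, and the 0 allows up to 0.215 CPM. The value of PBS mouse 71, 1.075 CPM, lay inside the IAKA range. The log2FC was 1.89 (SE 0.93, adjusted P = 0.983, edgeR), and 3.79 (SE 1.19, adjusted P = 1.000, edgeR) without PBS mouse 71, which had the highest value of its group in all 10 members.

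**Figure D1:**
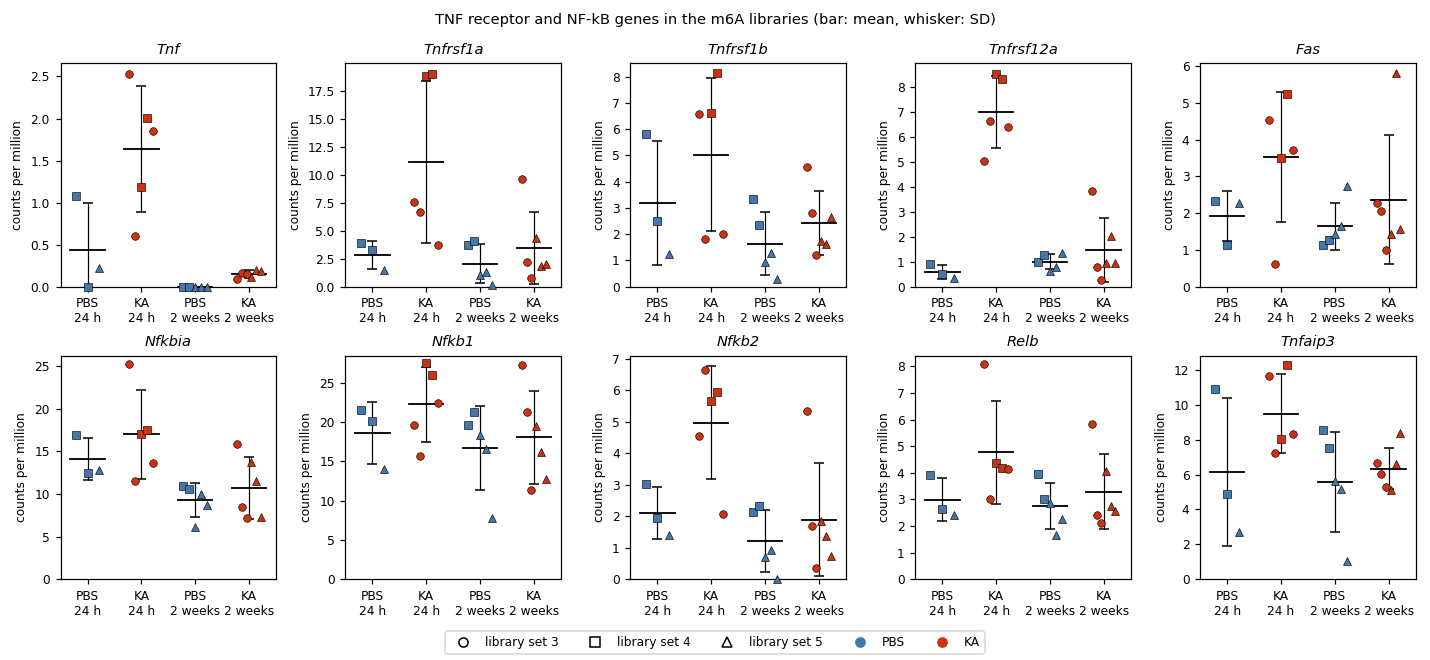
Level (CPM) of each of the 10 genes (vertical axes, linear and different in each panel) in the 19 m6A libraries, by group on the horizontal axis. Each point is the library of 1 mouse, its shape is the library set, bars are group means and whiskers are SD. Tnfrsf12a is the gene whose 24-hour IAKA points, from 5.05 to 8.54, all lie above the PBS points, from 0.369 to 0.896.

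The NF-kB genes were read next. Nfkb2, the precursor of the subunit p52 of the alternative pathway, stood at 4.55, 6.66, 5.64, 5.94 and 2.08 CPM in IAKA mice 67, 98, 97, 79 and 8, and at 3.01, 1.93 and 1.40 CPM in PBS mice 71, 73 and 1. All IAKA libraries but that of mouse 8 lay above the PBS libraries. Its log2FC was 1.16 (SE 0.44, adjusted P = 0.803, edgeR), and of the 18 alternatives voom alone called it (adjusted P = 0.0158). Relb, the partner of p52, had a log2FC of 0.64 (SE 0.40) and Nfkb1, the precursor of the subunit p50 of the classical pathway, one of 0.28 (SE 0.29). The inhibitor Nfkbia stood at 17.0 ± 5.24 CPM (SD, n = 5) in IAKA mice and 14.1 ± 2.45 CPM (n = 3) in PBS mice, a log2FC of 0.25 (SE 0.27). The ubiquitin-editing inhibitor Tnfaip3 stood at 9.49 ± 2.27 CPM (n = 5) and 6.16 ± 4.24 CPM (n = 3), with a log2FC of 0.63 (SE 0.42) and of 1.25 (SE 0.44) without PBS mouse 71. For these 4 genes the libraries of the conditions overlapped.

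Over the m6A libraries at 24 hours, 0 of the 10 members passed an adjusted P of 0.05 in edgeR, against 0.00607% of all genes (the transcript of Tm4sf1). At an unadjusted P under 0.05 there were 3 members (Tnfrsf12a, Tnfrsf1a and Nfkb2), against 5.31% of all genes. DESeq2 called 1 member (0.947% of all genes) and voom 3 (6.81%). The log2FC of Tnfaip3 was -0.025 in voom. In edgeR all 10 log2FC values were above 0, against 58% of all genes, with a median of 0.78 against 0.083 over all genes. Of 14 microglia markers 10 were above 0, and 0 were higher and 2 lower at an unadjusted P under 0.05. Their sums overlapped, from 243.6 to 537.3 CPM in IAKA and from 287.9 to 382.4 CPM in PBS mice. Of 9 leukocyte markers tested 8 were above 0 and 1 was higher at that level, and their sums were 39.9 to 128.7 CPM in IAKA and 19.2 to 52.2 CPM in PBS mice. Of 9 astrocyte markers 2 were higher and 1 lower at that level, and of 8 excitatory neuron markers 1 was above 0 (median -0.42). All 6 choroid plexus markers were above 0 (median 1.15), and 0 were higher at that level. Their sums overlapped, from 29.1 to 979.9 CPM in IAKA and from 46.2 to 600.4 CPM in PBS mice. The part of these cell types in the members' values was not tested.

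In the input libraries at 24 hours the same genes were set against a lone PBS library of 12694434 counts, so its spread was borrowed from the other input groups in a fit of 13 libraries. Tnfrsf12a had 20, 6 and 33 counts in IAKA mice 67, 98 and 8, or 3.64, 1.54 and 3.33 CPM, and 1 count in PBS mouse 1, or 0.0788 CPM. The ratio of pooled counts to pooled depth was 38.8, with an exact 95% interval from 6.69 to 1557 that covers counting error only. The edgeR log2FC was 5.15 (SE 1.73, adjusted P = 0.396). Tnf had 16, 4 and 10 counts in IAKA mice 67, 98 and 8 and 1 in the PBS mouse, a ratio of 19.7 (exact 95% interval 3.28 to 804.2). This interval too leaves out the spread between mice. The edgeR log2FC of Tnf was 4.315 (SE 2.241).

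Tnfrsf1a stood at 12.7, 7.93 and 2.92 CPM in IAKA mice 67, 98 and 8 and at 1.42 CPM in the PBS mouse (log2FC 2.70, SE 1.06, adjusted P = 0.475, edgeR). Tnfrsf1b stood at 8.18, 1.79 and 3.23 CPM and at 0.866 CPM (2.62, SE 0.98, adjusted P = 0.450, edgeR), and Fas at 4.00, 2.82 and 2.72 CPM and at 0.945 CPM (2.03, SE 0.85, adjusted P = 0.499, edgeR). For each of these receptors the 3 IAKA libraries lay above the control, and mouse 67 was the highest.

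Among the NF-kB genes, Nfkb1 was at 25.1, 16.9 and 21.9 CPM in IAKA mice 67, 98 and 8 against 14.3 CPM, a log2FC of 0.89 (SE 0.28, adjusted P = 0.385, edgeR). Relb was at 4.73, 3.58 and 5.35 CPM against 2.68 CPM (1.10, SE 0.44), and Nfkb2 at 4.37, 2.82 and 2.12 CPM against 1.497 CPM (1.32, SE 0.66). The inhibitors did not separate. Nfkbia was at 17.5, 13.6 and 11.1 CPM against 14.7 CPM and had a log2FC of 0.22 (SE 0.45), which turned to -0.074 with library size scaling. Tnfaip3 was at 8.55, 2.56 and 7.97 CPM against 4.81 CPM (0.77, SE 0.60).

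Thus in 8 of the 10 members every IAKA input library lay above the PBS library at 24 hours, which was true of 10.9% of all genes. None of the 10 passed an adjusted P of 0.05 in edgeR (0% of 17644 genes), and 6 had an unadjusted P under 0.05 (9.23% of all genes), namely Tnfrsf1a, Tnfrsf1b, Tnfrsf12a, Fas, Nfkb1 and Relb. DESeq2 called 0 members (1.12% of all genes) and voom called Tnfrsf1a and Tnfrsf12a (5.99%). All 10 estimates were above 0 with TMM scaling, against 65.9% of all genes, with a median of 1.67 against 0.27 over all genes. Nfkbia was below 0 with library size scaling. That scaling shifted the median of all genes by -0.31. Without IAKA mouse 8 no member passed in edgeR, and Tnfrsf12a and Tnfrsf1a had log2FC values of 4.93 and 3.08 (adjusted P = 0.0860 and 0.0977). The library set that holds IAKA mice 67 and 98 and PBS mouse 1 has the same 24-hour libraries as remain without mouse 8. Within that set, a split chosen after seeing the data, the values were 4.89 and 3.08. With the set as a block they were 5.06 and 3.01 (adjusted P = 0.224 and 0.169, edgeR). Over all alternatives the adjusted P of Tnfrsf12a ran from 0.0373 to 0.991 and that of Tnfrsf1a from 0.0182 to 0.991. Leukocyte markers summed to 42.5 to 102.2 CPM in IAKA mice and 35.1 CPM in the PBS mouse, with 10 of 10 tested above 0 and Nkg7 at 0 in the PBS mouse. At an unadjusted P under 0.05, 3 leukocyte, 4 of 8 endothelial (median 1.72), 2 of 5 blood (median 1.87), 3 of 9 astrocyte (median 0.93) and 1 of 14 microglia markers were higher. Every IAKA library lay above the PBS library in 5 of 5 blood markers, and below it in 8 of 8 inhibitory neuron markers. The share of all genes below it was not counted. Its inhibitory neuron sum, 600.7 CPM, was the highest of the 13 input libraries. The IAKA sums lay on both sides of the PBS value for endothelial markers (475.8 to 1222 CPM against 915.7). So did those of astrocyte (913 to 4554 CPM against 2244) and microglia markers (164 to 306.5 CPM against 201.8). The part of these cell types in the members' values was not tested.

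**Figure D2:**
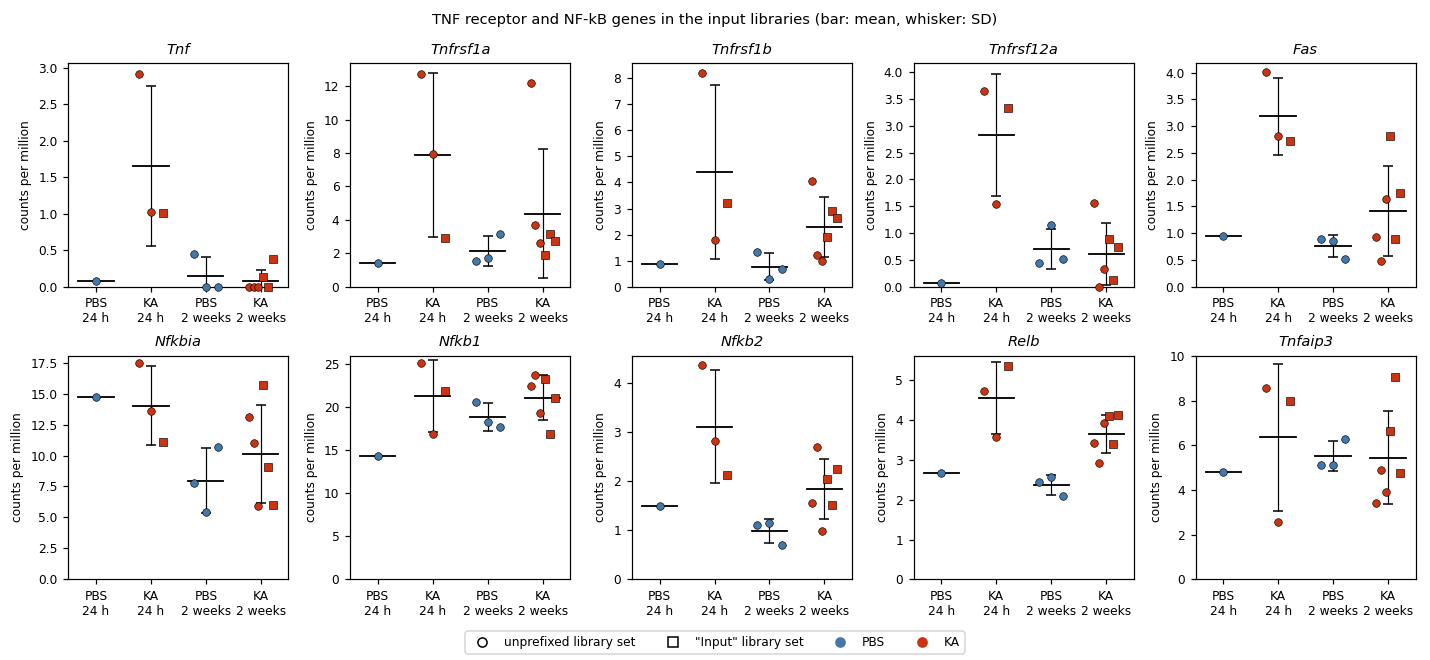
Level (CPM) of each of the 10 genes (vertical axes, linear and different in each panel) in the 13 input libraries of 100000 or more counts, by group on the horizontal axis. Each point is 1 mouse, its shape is the library set, bars are means and whiskers are SD where a group has over 1 library. At 24 hours the only PBS point lies below all 3 IAKA points in every panel but those of Nfkbia and Tnfaip3.

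The next question was whether the differences were seen at 2 weeks, when the animals have spontaneous seizures. In the m6A libraries Tnfrsf12a ranged from 0.263 to 3.85 CPM in IAKA mice (median 0.953, n = 6) and was 0.977, 1.27, 0.648, 0.794 and 1.37 CPM in PBS mice 50, 78, 2, 3 and 4. The IAKA range enclosed the PBS range. The log2FC was 0.61 (SE 0.55) and fell to 0.029 without IAKA mouse 42, which held the highest value. Tnfrsf1a ranged from 0.789 to 9.60 CPM (median 2.13, n = 6) in IAKA mice and was 3.76, 4.09, 1.01, 1.28 and 0.152 CPM in PBS mice 50, 78, 2, 3 and 4, with a log2FC of 0.78 (SE 0.66). The higher PBS pair, mice 50 and 78, makes up the PBS libraries of set 4, and the other 3 are those of set 5. IAKA mice 42, 5 and 6 belong to set 3, which holds no PBS library, and IAKA mice 21, 7 and 9 to set 5. Within set 5, a split chosen after seeing the data with 3 mice of each condition, the log2FC was 1.73 (SE 0.66, adjusted P = 0.956, edgeR), and with the set as a block 1.71 (SE 0.82, adjusted P = 1, edgeR). Set 5 alone holds both conditions at 2 weeks, so both fits compare the same libraries. Without IAKA mouse 42 the log2FC over the other 2-week m6A libraries was 0.16.

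IAKA mouse 42 had the highest value of its group in 7 of the 10 members, all but Tnf, Fas and Tnfaip3, and mouse 6 the lowest in 8. The library of mouse 42 also held the highest summed microglia markers of the group (801.1 CPM, group median 411.4) and the highest astrocyte markers (7404 CPM, group median 4251). Its input library was likewise the highest in both lists (564.1 and 7490 CPM) and in Tnfrsf1a, Tnfrsf1b and Tnfrsf12a. The part of these cells in its values was not tested. Without mouse 42 the estimate of Nfkb2, which was 0.63 (SE 0.69) over all mice, was -0.038.

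Tnf had 2 to 5 counts in each of the 6 IAKA m6A libraries and no count in the 5 PBS libraries. A count of 0 allows up to 0.113 to 0.456 CPM in those PBS libraries, and the IAKA values, 0.0868 to 0.196 CPM, lie in or below that span, so no fold is given and the gene was below the filter for the test. IAKA libraries lay above all PBS libraries in 0.260% of the 16157 genes tested and in 0 of the 9 members tested. The other receptors, Tnfrsf1b and Fas, had log2FC values of 0.59 (SE 0.48) and 0.58 (SE 0.44). Fas was at 5.82 CPM in IAKA mouse 7 and at 0.994 to 2.29 CPM in the other IAKA mice. The remaining NF-kB genes ran from 0.17 (Nfkb1, SE 0.26) to 0.32 (Relb, SE 0.33), with Nfkbia at 0.26 and Tnfaip3 at 0.25. No member passed an adjusted P of 0.05 in edgeR (0% of all genes), DESeq2 (0.0928%) or voom (0.0124%), and none had an unadjusted P under 0.05 in edgeR (5.01%). All 9 estimates were above 0 in edgeR with all libraries, against 49.8% of all genes, with a median of 0.58 against -0.0013 over all genes. Nfkb1 turned to -0.0046 in voom. Without PBS mouse 4, which was the lowest of its group in 5 members, Nfkb1 and Tnfaip3 turned to -0.019 and -0.018 in edgeR. Of 14 microglia markers 13 were above 0 and 6 were higher at an unadjusted P under 0.05, with sums of 297.0 to 801.1 CPM in IAKA and 221.6 to 345.9 CPM in PBS mice. Of 9 astrocyte markers 8 were above 0 and 3 higher at that level, and of 8 excitatory neuron markers 0 were above 0 (median -0.36). Their part was not tested.

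In the input libraries at 2 weeks, Relb ranged from 2.93 to 4.12 CPM in IAKA mice (median 3.68, n = 6) and was 2.44, 2.57 and 2.10 CPM in PBS mice 2, 3 and 4. The groups did not overlap, which held for 2.64% of all genes and for 1 of the 6 members tested. Its log2FC was 0.67 (SE 0.28, adjusted P = 0.323, edgeR), and 0.58 both within the unprefixed library set (SE 0.37) and with the set as a block (SE 0.34). The unprefixed set alone holds both conditions here, so both fits compare the same libraries. Tnfrsf1b ranged from 0.981 to 4.06 CPM (median 2.27, n = 6) against 1.33, 0.285 and 0.699 CPM in PBS mice 2, 3 and 4, a log2FC of 1.56 (SE 0.55, adjusted P = 0.278, edgeR). The values of IAKA mice 21 and 5 lay within the PBS range. Tnfrsf1a ranged from 1.92 to 12.2 CPM (median 2.95, n = 6) against 1.56, 1.71 and 3.15 CPM. Its log2FC was 0.93 (SE 0.61) and 0.36 without IAKA mouse 42, whose 12.2 CPM stood well above the next value, 3.66.

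Tnf, Tnfrsf12a, Fas and Nfkb2 had too few counts in the 2-week input libraries to be tested. Tnfrsf12a was at 0.610 ± 0.582 CPM (SD, n = 6) in IAKA and 0.703 ± 0.381 CPM (n = 3) in PBS mice. Tnf had 3 counts in IAKA mouse 6, 1 in IAKA mouse 7 and 2 in PBS mouse 2, and none in the other 6 libraries. Nfkb1 had a log2FC of 0.19 (SE 0.15), and Nfkbia one of 0.35 (SE 0.31), which was -0.0093 in voom. Tnfaip3 stood at 0.055 (SE 0.30), and at -0.39 with the library set as a block. Of the 6 members tested, 0 passed an adjusted P of 0.05 in edgeR (0% of 13752 genes), DESeq2 (0.844%) or voom (2.60%), and Tnfrsf1b and Relb had an unadjusted P under 0.05 (14.1% of all genes). At 2 weeks 14 of 14 microglia markers were above 0 in the input libraries, against 52.4% of all genes, and 8 were higher at an unadjusted P under 0.05. Their sums were 263.3 to 564.1 CPM in IAKA and 173.6 to 264.3 CPM in PBS mice. Of 9 astrocyte markers 4 were higher at that level (median 0.78), as were 3 of 8 excitatory neuron markers (median 0.55) and 2 of 5 leukocyte markers tested (median 0.38). Their part in the values of Tnfrsf1b and Relb was not tested.

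**Figure D3:**
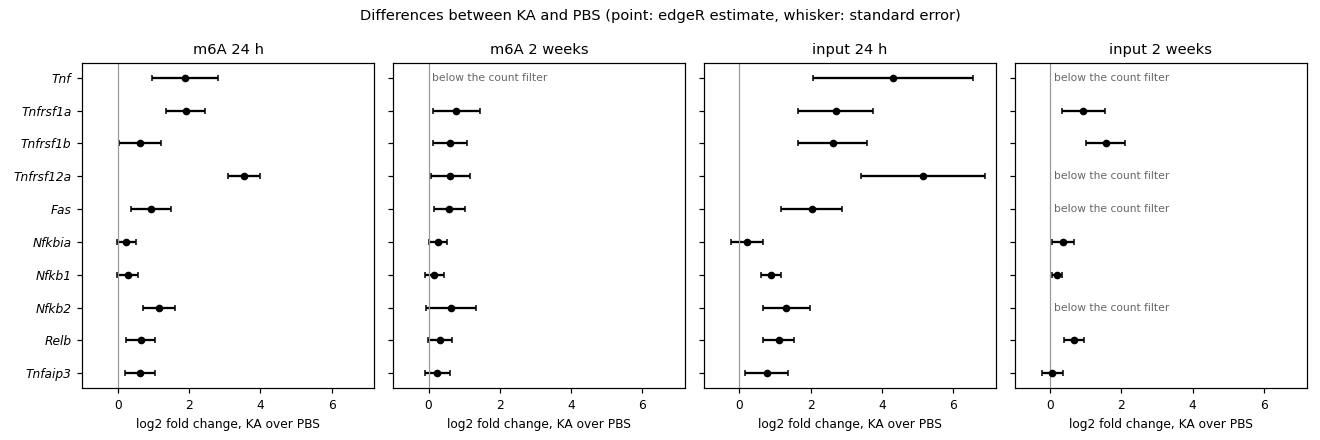
log2 fold changes of IAKA over PBS mice (horizontal axis) for the 10 genes in the m6A and input libraries at 24 hours and 2 weeks. Points are edgeR estimates and whiskers standard errors. Tnfrsf12a stands at 3.54 and 5.15 at 24 hours and at 0.61 in the m6A libraries at 2 weeks, and genes below the count filter are marked.

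Whether the IAKA difference itself changed between the times was tested as an interaction. In the m6A libraries Tnfrsf12a had a larger difference at 24 hours than at 2 weeks by 2.94 on the log2 scale (SE 0.78, adjusted P = 1.000, edgeR), and ranked at place 18 of 17440 genes by P. It was the 1 member at an unadjusted P under 0.05. In edgeR 0 members passed an adjusted P of 0.05 (0.00573% of all genes), in DESeq2 0 (0.0287%), and in voom Tnfrsf12a passed (0.356%, adjusted P = 0.0233). The order of its m6A group means was 24-hour IAKA (6.99 CPM), 2-week IAKA (1.47), 2-week PBS (1.01) and 24-hour PBS (0.589). The 24-hour IAKA libraries lay above those of every other group, while the 2-week groups overlapped each other, and the 24-hour PBS range overlapped both of them. For Tnfrsf1a the interaction was 1.14 (SE 0.96). In the input libraries it was 5.34 for Tnfrsf12a (SE 1.90) and 1.74 for Tnfrsf1a (SE 1.18), and no member or other gene passed the adjusted threshold (0% of 17644 genes), with Tnfrsf12a and Nfkb1 under an unadjusted P of 0.05.

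The m6A pulldown was then set against the input, to see whether the IAKA difference was larger in one than in the other. At 24 hours the difference in Tnfrsf12a was lower in m6A than in input libraries, by -1.74 on the log2 scale (SE 1.11), as was that in Tnfrsf1a, by -0.77 (SE 1.201). Neither passed, nor did any of the 10 members (0% of 22760 genes), and none had an unadjusted P under 0.05. With TMM scaling 9 of the 10 estimates were below 0 (median -0.67, against 0.0042 over all genes), and with library size scaling 7 were (median -0.38), a scaling that shifted the median of all genes by 0.25. With the 1 PBS input library the interval of such a difference is wide. At 2 weeks Tnfrsf12a stood at 0.79 (SE 1.07), and 0 of 9 members tested passed (0% of 16141 genes, 0 members at an unadjusted P under 0.05). In PBS mice at 2 weeks m6A libraries were compared with input libraries directly. There 0 of 7 members tested passed, against 1.12% of all genes, and 0 had an unadjusted P under 0.05. Estimates ran from -0.41 in Nfkb1 (SE 0.29) to 0.87 in Tnfrsf1b (SE 0.77) and Fas (SE 0.52). The same held in DESeq2 and voom, which called no member in these 3 comparisons. No assay difference in these genes was therefore detectable at this depth, and no library set holds both assays.

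Mice with both libraries show the values side by side. In IAKA mice 67, 98 and 8 at 24 hours Tnfrsf12a was at 3.64, 1.54 and 3.33 CPM in input and at 5.05, 6.66 and 6.38 CPM in m6A libraries. PBS mouse 1, the control pair at that time, was also higher in m6A. It had 1 count, or 0.0788 CPM, in input and 5 counts, or 0.369 CPM, in m6A. In IAKA mouse 42 at 2 weeks Tnfrsf1a was at 12.2 CPM in input and 9.60 CPM in m6A. Both assays placed mouse 42 highest of its group for this receptor. In PBS mouse 4 they differed, with Tnfrsf1a at 3.15 CPM in input and 0.152 CPM, or 1 count, in m6A.

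**Figure D4:**
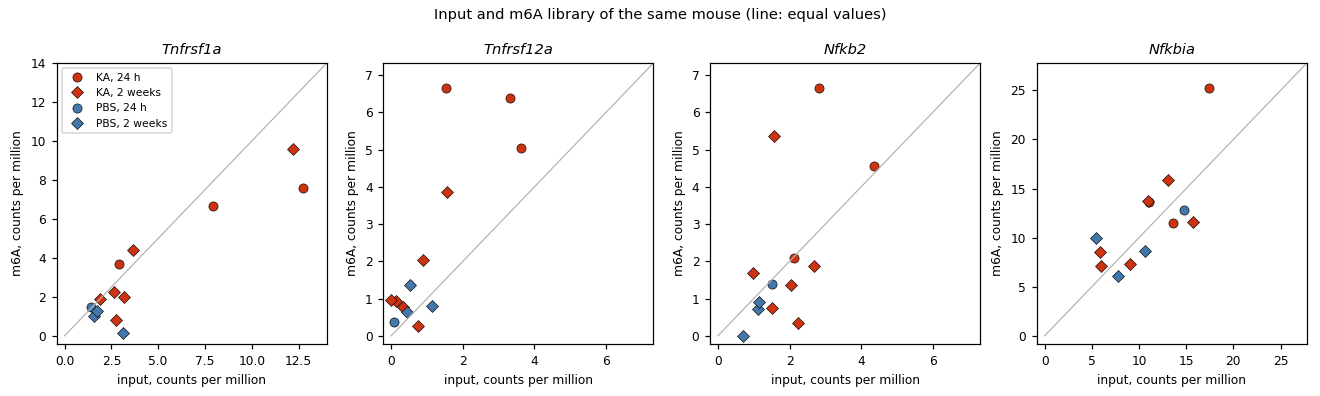
Level (CPM) in the m6A library (vertical axis) against the input library (horizontal axis) of the same mouse for Tnfrsf1a, Tnfrsf12a, Nfkb2 and Nfkbia. Each point is 1 of 13 mice, colour is the condition, circles are 24 hours and diamonds 2 weeks, and the line marks equal values. For Tnfrsf12a the 3 IAKA mice of 24 hours lie at 5.05 to 6.66 in m6A and 1.54 to 3.64 in input. PBS mouse 1 lies at 0.369 in m6A and 0.0788 in input.

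Pairs of members varied together to unlike degrees over the 19 m6A libraries, and 5 of 45 pairs had a correlation above 0.8. Pearson correlations of log2 CPM between the 45 pairs of members had a median of 0.60 and ran from 0.068 (Fas with Nfkb2) to 0.945 (Tnfrsf1a with Nfkb2). Fas had correlations of 0.262 or lower with Nfkb2, Tnfaip3, Tnfrsf1a, Nfkb1 and Tnfrsf1b. These points share condition, time and library set, and the correlations are a description. The median over other pairs of genes was not taken. Of all 17440 genes, those most like Tnfrsf1a were Loxl1 (0.957), a lysyl oxidase of the matrix, Spi1 (0.945), the PU.1 factor of microglia and myeloid cells, Nfkb2 (0.945), Ecm1 (0.940) and Itga5 (0.939), an integrin subunit. Those most like Nfkbia were Dpf2 (0.854), Wdr62 (0.839), Ppp4c (0.824), Fam195b (0.820) and Ccdc88b (0.814).

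The promoters of the feedback genes are shown because NF-kB is known to act through kB sites before their starts. RefSeq promoters (build GRCm38.p6, the assembly of mm10, 250 bases before to 50 after a start) were found for 8 members with 11 starts, and not for Nfkb1 and Relb. The kB consensus, searched on both strands, matched the 250 bases before the start in Nfkbia, Nfkb2 and Tnfaip3, and in 7.25% of all 32851 promoters. The AP-1 motif TGANTCA, in which N is any base, matched there in Fas, Nfkb2 and Tnfaip3, and in 6.75% of all promoters. Capitals mark the matches in the stretches below, each written along its gene's strand. They are chr12:55492657-55492686 (minus strand) for Nfkbia, chr19:46304688-46304736 (plus strand) for the first Nfkb2 start, where a pair of the 3 kB matches overlap, and chr10:19015411-19015556 (minus strand) for the second Tnfaip3 start, whose first capitals are the AP-1 match. All lie before the start.
Nfkbia: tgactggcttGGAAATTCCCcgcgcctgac
Nfkb2: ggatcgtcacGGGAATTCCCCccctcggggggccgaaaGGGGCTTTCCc
Tnfaip3: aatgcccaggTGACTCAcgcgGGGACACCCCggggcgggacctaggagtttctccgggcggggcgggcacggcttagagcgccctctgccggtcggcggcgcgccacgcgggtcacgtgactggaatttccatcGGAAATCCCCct

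A match is a description and not a bound site. The 3 genes with a kB match had log2FC values of 0.25, 1.16 and 0.63 in the m6A libraries and 0.22, 1.32 and 0.77 in the input libraries at 24 hours, in the order printed.

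**Figure D5:**
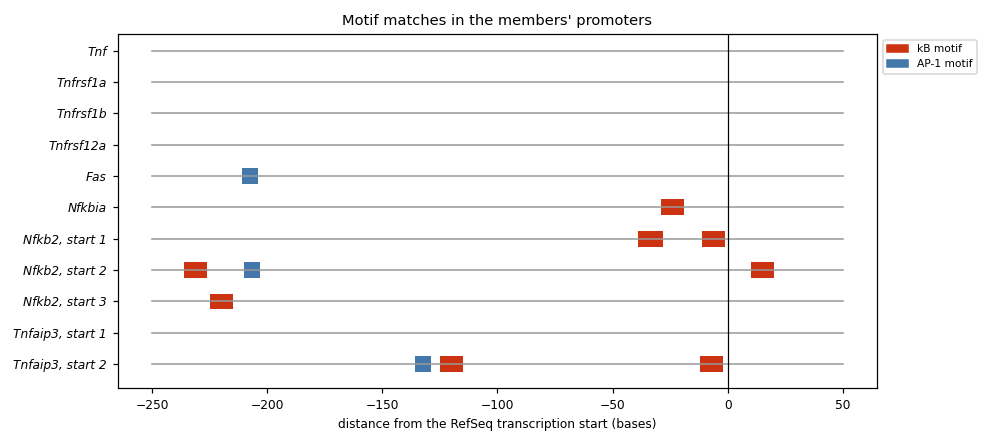
Matches of the kB and AP-1 motifs along the promoters of 8 members (11 starts, 1 per row), by distance in bases from the RefSeq start on the horizontal axis. Coloured boxes are matches on either strand. Matches before the start lie in Fas, Nfkbia, Nfkb2 and 1 of the 2 starts of Tnfaip3.

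Around the members, 120 other genes of the pathway in 6 lists were read in the same fits, and 0 of them passed an adjusted P of 0.05 in edgeR in any of the 4 comparisons of IAKA with PBS mice. At 24 hours in the m6A libraries 100 were tested, and 21 were higher and 0 lower at an unadjusted P under 0.05. In the input libraries 101 were tested, and 20 were higher and 1 lower. At 2 weeks 12 of 84 were higher and 0 lower in the m6A libraries, and 11 of 65 were higher and 1 lower in the input libraries. Of all genes, in either direction, 5.31%, 9.23%, 5.01% and 14.1% had such a P in these 4 comparisons, in the order given.

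At 24 hours 58% of all genes in m6A and 65.9% in input libraries had estimates above 0. The pathway lists were written by hand with earlier results of these data known, so their counts and medians are a description. Within the lists, most of the 24-hour differences lay among 34 genes known to be induced by NF-kB, such as chemokines and adhesion molecules. Of 31 tested, 29 were above 0 and 14 were higher at an unadjusted P under 0.05 in each assay, with medians of 1.44 in m6A and 1.75 in input libraries. Ccl2, a chemokine that draws monocytes, averaged 13.6 CPM in IAKA and 0.773 CPM in PBS m6A libraries (log2FC 4.06, SE 0.75). Cd44, a receptor of the matrix, averaged 81.7 and 12.1 CPM (2.68, SE 0.43), and Icam1, an adhesion molecule of endothelium, 10.8 and 2.76 CPM (1.90, SE 0.54). In the input libraries these 3 had log2FC values of 4.44 (SE 1.18), 2.70 (SE 0.84) and 3.25 (SE 1.08). At 2 weeks the median of the list was 0.50 over 19 tested in m6A and 0.76 over 14 tested in input libraries, with 7 and 5 higher at that level. In the list of other TNF receptors, Ltbr, Tnfrsf11b and Tnfrsf23 were higher at an unadjusted P under 0.05 among 16 tested in m6A libraries (median 0.23), and Ltbr and Tnfrsf25 among 17 in input libraries (median 1.077). Ltbr encodes the lymphotoxin receptor, which feeds the alternative NF-kB pathway. Of 22 adaptors and death signalling genes tested in m6A libraries the median was 0.24, and of 21 tested in input libraries 0.55. Mlkl, the effector of necroptosis, and Traf2, which couples TNF receptors to NF-kB, were higher at that level in m6A libraries. Among 7 other subunits and kinases of NF-kB none was in m6A libraries (median 0.13), and Rela and Ikbkb were in input libraries (median 0.57). Among 17 other inhibitors 1 was, Bcl3, an IkB family member that works in the nucleus (m6A median 0.059). Among 16 tested in input libraries (median 0.11) Nfkbiz, a nuclear IkB protein, was higher (log2FC 0.80, SE 0.35) and Tax1bp1, a partner of A20, was lower (-0.64, SE 0.24), the 1 lower gene of all 101. Every IAKA library lay below the PBS library in 7 of these inhibitors and above it in 2. Of all genes, 10.9% had every IAKA library above it. The share below it was not counted, and a lone control library sets both counts, so they are a description. The ligand list, with 7 of 17 tested in m6A libraries, had Tnfsf9 alone at that level (median 0.91). In input libraries the median of the ligands was 0.85 over 9 tested. These genes were named after their values were seen.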

How the data were processed

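Hippocampal input and m6A libraries were compared. The files the authors deposited, 15 in all, hold raw read counts by gene symbol, 1 column a lane and 4 lanes a library, without normalization. The submitters' processing notes name the build mm10. For the aligner, the counting program and whether strand was used, the sources used here give nothing. Lanes were summed to 35 libraries, from 140 columns. Another 8 columns match no labelled library and were not used. Levels are CPM, relative to a library's total. Groups were compared in R 4.3.3 by the robust quasi-likelihood fit of edgeR 4.0.16 (filterByExpr, TMM scaling, Benjamini-Hochberg over all genes tested, threshold 0.05). The 24-hour input comparison used 1 fit of 13 libraries, and other comparisons used only their own groups. Standard errors are the log2 fold change over the square root of F. Alternatives were DESeq2 1.42.0, limma 3.58.1 voom with quality weights, library size scaling, other filters, the library set as a block, and each library left out. The scripts were tested on simulated data. Plots used Python 3.11.15 and matplotlib 3.10.9.

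Members and lists were chosen with earlier results of these data known. The rule for other genes named those past the adjusted threshold, and none was. Genes most like Tnfrsf1a and Nfkbia are the 5 of highest Pearson correlation over the 19 m6A libraries. Mouse numbers pair input and m6A libraries, since by the labels both come from 1 animal. The correlation of their deviations from the group means in 9 mice at 2 weeks ran from -0.048 to 0.478, and in mice 2, 4 and 6 the m6A library correlated more with another mouse's input library than with its own. By the labels the 35 libraries come from 19 mice, and within an assay each library has its own mouse. A count of 0 allows up to 3 counts; such limits and intervals cover counting error only.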

Additional observations from a re-analysis of the deposited data

Results flagged for a closer look

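In groups of 4 to 10 libraries the highest and lowest values of each member were compared with their neighbours, by the gap to the nearest value over the range of the group (Dixon's 95% limit). Of 39 sets of values, 5 were past it, where chance gives about 1 in 20. At 2 weeks Tnfrsf1a in IAKA input libraries was at 12.2 CPM in mouse 42, with the next at 3.66, and Nfkb2 in IAKA m6A libraries was at 5.35 CPM in the same mouse, with the next at 1.86. Fas in IAKA m6A libraries was at 5.82 CPM in mouse 7, with the next at 2.29. Tnf in IAKA input libraries was at 0.374 CPM in mouse 6, which is 3 counts, with the next at 0.128. At 24 hours Relb in IAKA m6A libraries was at 8.08 CPM in mouse 67, which is 16 counts in a library of 1979606, with the next at 4.38.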

How the results depend on the processing

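The count of members past an adjusted P of 0.05, 0 in every comparison in edgeR, was raised by some alternatives. In the m6A libraries at 24 hours it was 1 with DESeq2, library size scaling, no filter or all 4 m6A groups in 1 fit, 3 with voom, and 2 within library set 4, which was chosen after seeing the data, while leaving out each library in turn gave 0 to 1. In the input libraries at 24 hours it was 2 with voom and 3 (Tnfrsf1a, Tnfrsf1b and Fas) with all labelled 24-hour libraries, of which 3 have under 100000 counts. It was 1 with voom for the m6A time interaction. The remaining alternatives left it at 0 in all 9 comparisons. Signs turned in Tnfaip3 (24-hour m6A, voom, -0.025), Nfkb1 (2-week m6A, voom, -0.0046), Nfkbia (24-hour input, library size, -0.074), Nfkbia (2-week input, voom, -0.0093) and Tnfaip3 (2-week input, library set as a block, -0.39, and unprefixed set alone, -0.39). The block and the unprefixed set compare the conditions within the same libraries. Leaving out each library in turn gave -0.019 to 0.28 for Nfkb1, -0.018 to 0.43 for Tnfaip3 (both lowest without PBS mouse 4) and -0.038 to 0.96 for Nfkb2 (lowest without IAKA mouse 42) in 2-week m6A libraries. In 2-week input libraries it gave -0.17 (without IAKA mouse 9) to 0.16 for Tnfaip3, which was also below 0 without PBS mouse 2 (-0.056). The cause was not tested. Over all genes, edgeR, DESeq2 and voom called 1, 156 and 1121 in 24-hour m6A libraries, 0, 197 and 1057 in 24-hour input libraries, 0, 15 and 2 in 2-week m6A libraries, 0, 116 and 357 in 2-week input libraries, 1, 5 and 62 for the m6A time interaction and 170, 738 and 1189 for m6A over input in PBS mice. Without IAKA mouse 8 edgeR called 45 in 24-hour m6A and 180 in 24-hour input libraries, and within library set 4 and the unprefixed set 356 and 342. With the mouse as a replicate block, for the comparisons of m6A with input, the count of members stayed at 0. Over all genes the calls went from 0 to 8 at 24 hours and from 0 to 1 at 2 weeks, and in PBS mice from 170 (297 in the paired mice without the block) to 57. Without PBS mouse 71 the 24-hour m6A estimates of Tnf, Tnfrsf1b and Tnfaip3 were 3.79, 1.31 and 1.25, and none passed. Leaving out m6A libraries under 2000000 counts, chosen after seeing the data, left it at 0. The comparisons that use 24-hour input could not be estimated without PBS mouse 1, nor m6A over input in PBS mice with the library set as a block. Low counts limit Tnf most.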
